A study of Danio rerio with 16 samples.

Results

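The 5 cardiac myosin heavy chain genes of the zebrafish, *myh6*, *myh7*, *myh7l*, *myh7ba* and *myh7bb*, were followed through single-nucleus RNA sequencing of adult zebrafish (*Danio rerio*) hearts. They were found by their symbols in the gene tables, and all 5 were present in every library, out of 24753 gene symbols that the libraries shared. Their identifiers in the files are ENSDARG00000090637 for *myh6*, ENSDARG00000079564 for *myh7*, ENSDARG00000079782 for *myh7l*, ENSDARG00000076075 for *myh7ba* and ENSDARG00000035322 for *myh7bb*. Older names are *amhc* for *myh6*, *vmhc* for *myh7* and *vmhcl* for *myh7l*. In RefSeq's assembly GRCz12tu, which is not the GRCz11 build named in the submitters' processing notes, *myh7* and *myh7l* are direct neighbours on chromosome 2, *myh6* lies on chromosome 20, *myh7ba* on chromosome 11 beside *trpc4apa*, and *myh7bb* on chromosome 23 beside *trpc4apb*.

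Fish homozygous for the *cited4a* allele pt38a, labelled pt38a/pt38a and called mutant here, were set against wild-type (WT) fish. Hearts of each genotype came either from uninjured fish (UI) or from fish that had lost roughly 20% of the ventricle to amputation 3 days before (3 dpa). The 4 groups were thus mutant 3 dpa, mutant UI, WT 3 dpa and WT UI. The labels give no age, sex or number of fish, and the pt38a lesion is not described in them. The labels list 4 samples per group, whose titles differ only by L001 to L004. Whether these are separate hearts or sequencing lanes of 1 library was not settled here. Each group came as 1 matrix whose barcodes carry no sample, so a group is 1 library with no replicate and no difference between libraries was tested.

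A myosin heavy chain is the motor and rod of the thick filament. It hydrolyses ATP, pulls on actin, and sets much of the speed of contraction. In zebrafish, *myh6* is the atrial form, and *myh7* and *myh7l* are ventricular forms that belong to the slow, beta-type branch. The myh7b pair descends from an ancient slow-type gene whose mammalian counterpart is transcribed in heart, slow muscle and brain and carries a microRNA in an intron. After injury of the zebrafish ventricle, cardiomyocytes at the wound border partly dedifferentiate, and the ankyrin repeat protein gene *ankrd1a* is a marker often used for those border cells.

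Unique molecular identifiers (UMIs), which count captured RNA molecules at the 3 prime end, numbered between 12984219 and 24511414 per library. Barcodes below 500 UMIs or above 5% mitochondrial UMIs were dropped. The nuclei kept were 9140 of 12360 barcodes in mutant 3 dpa, 9932 of 35484 in mutant UI, 10394 of 12167 in WT 3 dpa and 8178 of 8309 in WT UI, with median depths of 951, 973, 1052 and 1725 UMIs in that order. Before filtering, the median mitochondrial share per barcode was 1.70% in mutant 3 dpa, 5.20% in mutant UI, 2.06% in WT 3 dpa and 0.576% in WT UI. Mutant UI thus had the highest share, and it kept the smallest part of its barcodes. The part of library quality in its levels was not tested. The mutant pair shared 133 barcodes and the WT pair 136, while libraries of different genotype shared 0. The gene tables also differed, with 27758 genes in the mutant tables and 25432 in the WT tables, so genotype and gene table cannot be told apart. Nuclei were called cardiomyocyte-like from 17 measured markers that include none of the 5 genes, such as *ttn.2*, *myl7* and *mybpc3*. There were 7656 such nuclei in mutant 3 dpa, 6336 in mutant UI, 5258 in WT 3 dpa and 6093 in WT UI.

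The targeted gene and the border marker both ran in opposite directions in the 2 genotypes. In cardiomyocyte-like nuclei, *cited4a* stood at 384 CPM (UMIs of the gene per 1000000 UMIs on the shared genes) in mutant 3 dpa, 34.1 in mutant UI, 62.0 in WT 3 dpa and 165 in WT UI. For *ankrd1a* the levels were 0.635 CPM in mutant 3 dpa, 52.8 in mutant UI, 208 in WT 3 dpa and 13.1 in WT UI. The library labelled as injured was thus the high one for *ankrd1a* in WT and the low one in the mutant. The part of the labels and that of the genotype in this reversal were not tested, and the libraries below are named strictly as they are labelled. Each statement on a mutant library means the library labelled so, and this holds for every direction drawn from it.

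The family as a whole was abundant in all libraries. Its UMIs made up 18208 CPM of cardiomyocyte-like nuclei in the library labelled mutant 3 dpa, 13810 in mutant UI, 20505 in WT 3 dpa and 25669 in WT UI. After each nucleus was thinned to 500 UMIs, the median cardiomyocyte-like nucleus held 8 UMIs of the 5 genes in mutant 3 dpa, 6 in mutant UI, 9 in WT 3 dpa and 12 in WT UI. Between 0.209% of these nuclei in mutant 3 dpa and 1.36% in mutant UI held none. UMIs are counted near the 3 prime end and were not divided by gene length, so levels below are set side by side for 1 gene across libraries.

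The ventricular gene *myh7l* held the most UMIs of the family in every library. It stood at 11172 CPM in mutant 3 dpa (95% exact Poisson interval 11105 to 11239), 6128 in mutant UI (6074 to 6182), 13216 in WT 3 dpa (13152 to 13279) and 14282 in WT UI (14221 to 14344). The library labelled mutant UI was lowest, and the intervals of all 4 libraries were apart, but they cover counting error only and not the variation between fish. After thinning, 98.8% of cardiomyocyte-like nuclei in mutant 3 dpa, 87.3% in mutant UI, 96.6% in WT 3 dpa and 98.7% in WT UI held a *myh7l* UMI.

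Its neighbour *myh7* was far scarcer and varied more between libraries. It stood at 39.8 CPM in mutant 3 dpa (35.9 to 44.0), 129 in mutant UI (122 to 137), 452 in WT 3 dpa (440 to 464) and 175 in WT UI (168 to 182). WT 3 dpa was highest and mutant 3 dpa lowest, an 11.4-fold range across libraries. The shares of thinned nuclei with a *myh7* UMI kept that order, at 1.76%, 4.36%, 14.0% and 7.91% in mutant 3 dpa, mutant UI, WT 3 dpa and WT UI. Both neighbours are close paralogs, and no source used here says how the authors' counting assigned reads that match both, so the split between them is uncertain.

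The slow-type pair was highest in WT UI. Levels of *myh7ba* were 5762 CPM in mutant 3 dpa (5714 to 5811), 5860 in mutant UI (5808 to 5913), 5529 in WT 3 dpa (5488 to 5571) and 8819 in WT UI (8770 to 8867). Levels of *myh7bb* were 1231 CPM in mutant 3 dpa (1209 to 1254), 1671 in mutant UI (1643 to 1699), 1302 in WT 3 dpa (1282 to 1322) and 2391 in WT UI (2366 to 2417). The other 3 libraries lay between 5529 and 5860 CPM for *myh7ba*, and both 3 dpa libraries lay below mutant UI for *myh7bb*. The ratio of *myh7ba* to *myh7bb* UMIs stayed between 3.51 in mutant UI and 4.68 in mutant 3 dpa.

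The atrial gene *myh6* was barely detected. It stood at 2.75 CPM in mutant 3 dpa (1.80 to 4.03), 21.5 in mutant UI (18.4 to 24.9), 6.09 in WT 3 dpa (4.80 to 7.62) and 1.88 in WT UI (1.24 to 2.73), from 26, 176, 76 and 27 UMIs in that order. The library labelled mutant UI was the high one, while the intervals of mutant 3 dpa and WT UI overlap. Nuclei outside the cardiomyocyte-like class held about as much *myh6* in mutant UI and WT 3 dpa, at 21.4 and 7.20 CPM. There it was at 6.51 CPM in mutant 3 dpa, from 1 UMI, and at 0 in WT UI, where the exact interval of 0 UMIs reaches 3.54 CPM. In none of the 4 libraries was the cardiomyocyte-like level above that of other nuclei, or the level that 0 UMIs allow there, by more than counting error. In mutant UI, 30 nuclei held at least 2 *myh6* UMIs, and 33 of the 176 UMIs lay in 7 nuclei.

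**Figure D1:**
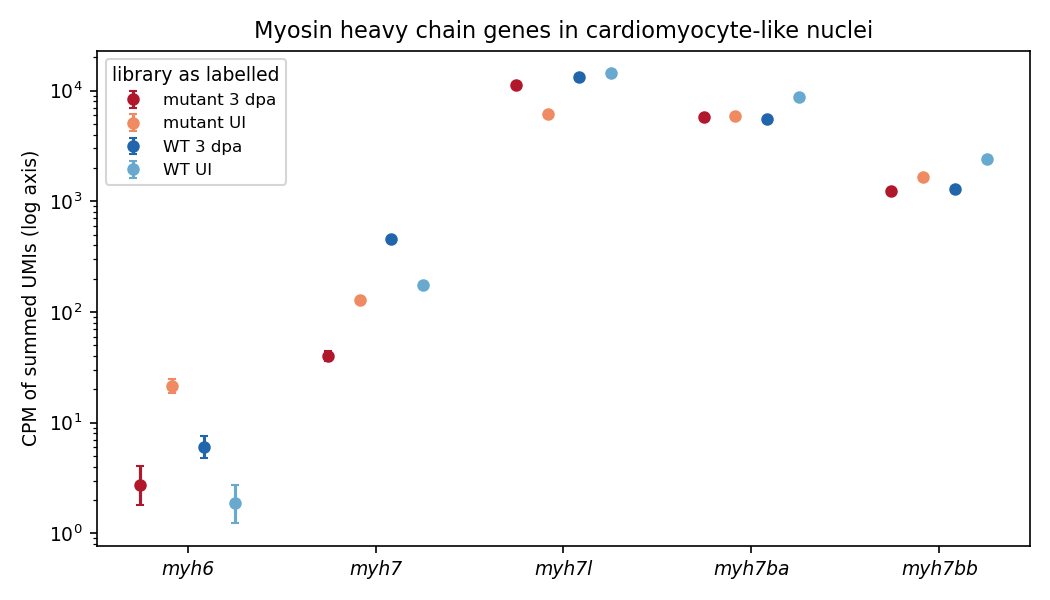
CPM of the 5 genes in cardiomyocyte-like nuclei (log axis), 1 point per library, with bars for 95% exact Poisson intervals. The libraries spread widely for *myh7*, at 39.8, 129, 452 and 175 CPM in mutant 3 dpa, mutant UI, WT 3 dpa and WT UI, and *myh6* lies below 25 CPM in all of them.

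The makeup of the family does not depend on how a library is scaled, and it ordered the libraries differently in part. For *myh7l*, WT 3 dpa lay above WT UI by share but below it by CPM. The myh7b shares were largest in mutant UI, whereas their CPM was highest in WT UI. Of the UMIs of the 5 genes in cardiomyocyte-like nuclei, *myh7l* held 61.4% in mutant 3 dpa, 44.4% in mutant UI, 64.5% in WT 3 dpa and 55.6% in WT UI. The share of *myh7ba* was 31.6%, 42.4%, 27.0% and 34.4% in the same libraries, and that of *myh7bb* 6.76%, 12.1%, 6.35% and 9.32%. Both injured libraries as labelled thus had a larger *myh7l* share and smaller myh7b shares than the uninjured library of their genotype. The *myh7* share was 0.219% in mutant 3 dpa and 0.937% in mutant UI, against 2.20% in WT 3 dpa and 0.682% in WT UI, and so ran in opposite directions in the 2 genotypes. In nuclei outside the cardiomyocyte-like class the *myh7* share was 0.116% from 1 UMI in mutant 3 dpa, 1.53% in mutant UI, 4.71% in WT 3 dpa and 1.18% in WT UI, larger than in cardiomyocyte-like nuclei in 3 of the 4 libraries. The *myh6* share was 0.155% in mutant UI and 0.0297% or less elsewhere.

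**Figure D2:**
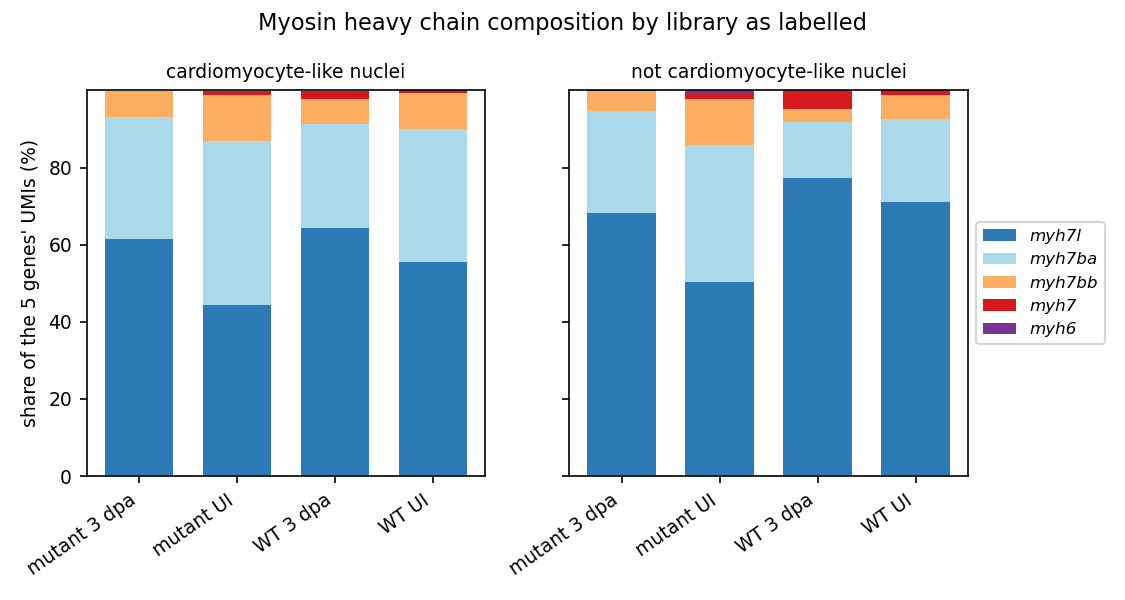
Share of the 5 genes' UMIs (%) held by each gene in cardiomyocyte-like nuclei (left) and in other named or unnamed nuclei (right), 1 bar per library. In both panels the blue *myh7l* part is smallest in mutant UI, at 44.4% and 50.4%, and the right panel has a larger *myh7l* part than the left in every library.

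The makeup differed between nuclei of different class within a library. In nuclei outside the cardiomyocyte-like class, which numbered 179 in mutant 3 dpa, 1655 in mutant UI, 3318 in WT 3 dpa and 1378 in WT UI, there were 2.58, 1.41, 5.30 and 3.28 *myh7l* UMIs per *myh7ba* UMI. In cardiomyocyte-like nuclei the ratio was 1.94, 1.05, 2.39 and 1.62 in the same libraries, lower in each. Put as levels, cardiomyocyte-like nuclei held 2.93 to 4.58 times the *myh7l* CPM of other nuclei, and 3.90 to 10.1 times the *myh7ba* CPM. For *myh7bb*, they held 1231 CPM against 286 in other nuclei of mutant 3 dpa and 1302 against 124 in WT 3 dpa. For *myh7* they held 2.65, 2.56 and 3.26 times the CPM of other nuclei in mutant UI, WT 3 dpa and WT UI. The ratio of 6.12 in mutant 3 dpa rests on 1 *myh7* UMI in other nuclei. The enrichment of the class's own marker genes is partly set by the way the class was chosen. Of these, the titin gene *ttn.2* was enriched 7.65 to 12.7 times on this scale, whereas *cmlc1*, a cardiac myosin light chain gene, was enriched 0.957 to 1.46 times. Before thinning, a *myh7l* UMI was found in 71.8% to 94.4% of other nuclei, and such detection is not read as expression by them.

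Between the libraries labelled WT 3 dpa and WT UI, *myh7* in cardiomyocyte-like nuclei was 2.58 times as high at 3 dpa, and the myh7b genes were lower, at 0.627 times the UI level for *myh7ba* and 0.544 times for *myh7bb*. On the log2(CPM + 10) scale, which understates the change of low genes, the differences were 1.32 for *myh7*, -0.67 for *myh7ba* and -0.87 for *myh7bb*, against a median of 0.13 over 15426 genes. Nuclei outside the cardiomyocyte-like class differed likewise for *myh7*, at 176 CPM in WT 3 dpa (163 to 190) and 53.8 in WT UI (40.6 to 69.9), and their part in the result was not tested. For *myh7l* the difference was -0.11 and for *myh6* it was 0.44. Of the 5 genes, 1 was at least 2-fold higher and 0 at least 2-fold lower on that scale, where 1.83% of all genes were higher and 0.454% lower by as much.

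Between the libraries labelled mutant 3 dpa and mutant UI the order was turned round for *myh6*, *myh7* and *myh7l*. There *myh7l* was 1.82 times as high at 3 dpa and *myh7* was 0.308 times as high, with log2 differences of 0.87 and -1.48. In other nuclei *myh7* stood at 6.51 CPM from 1 UMI in mutant 3 dpa and 48.8 in mutant UI. The difference was -1.30 for *myh6*, -0.02 for *myh7ba* and -0.44 for *myh7bb*, against a median of -0.16 over 13591 genes. Thus 2 of the 5 genes were at least 2-fold lower on the log2(CPM + 10) scale, where 3.46% of all genes were, and 0 were at least 2-fold higher, where 2.35% were.

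Between genotypes, *myh7l* was at 0.429 times the WT level in the uninjured libraries (log2 difference -1.22) and *myh6* at 11.4 times (log2 difference 1.41), while *myh6* in other nuclei differed likewise, at 21.4 CPM in mutant UI and 0 in WT UI. These were the 1 gene of 5 at least 2-fold lower and the 1 at least 2-fold higher on the log2(CPM + 10) scale, where 3.03% and 5.93% of all genes were. The same comparison gave -0.41 for *myh7*, -0.59 for *myh7ba* and -0.51 for *myh7bb*, against a median of 0.17. At 3 dpa, the level of *myh7* in the mutant library was 0.0881 times that in WT (log2 difference -3.21). It was the 1 gene of 5 at least 2-fold lower on that scale, where 4.50% of all genes were at least 2-fold lower and 2.94% higher. For *myh6* the CPM ratio was 0.452, from 26 UMIs in mutant 3 dpa and 76 in WT 3 dpa. On the log2(CPM + 10) scale the other members lay between -0.34 for *myh6* and 0.06 for *myh7ba*, against a median of -0.11. The 4 comparisons share libraries and are not independent of one another.

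Summed over all kept nuclei, the family stood at 17572 CPM in mutant 3 dpa, 11699 in mutant UI, 16095 in WT 3 dpa and 23755 in WT UI. The log2 difference was 0.59 between mutant 3 dpa and mutant UI, -0.56 between WT 3 dpa and WT UI, and -1.02 between mutant and WT among uninjured libraries. Between mutant and WT at 3 dpa it was 0.13, and -0.17 in cardiomyocyte-like nuclei alone. Cardiomyocyte-like nuclei were 83.8% of kept nuclei in mutant 3 dpa, 63.8% in mutant UI, 50.6% in WT 3 dpa and 74.5% in WT UI, and in sums over all nuclei fewer cardiomyocytes and less RNA per cardiomyocyte cannot be told apart. The *myh6* share of family UMIs over all kept nuclei was 0.0193% (95% exact Clopper-Pearson interval 0.0134 to 0.0268), 0.1996% (0.176 to 0.225), 0.0403% (0.0334 to 0.0481) and 0.00726% (0.00482 to 0.0105) in mutant 3 dpa, mutant UI, WT 3 dpa and WT UI.

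Other genes of the thick filament and its chaperones were set beside the myosins on the log2(CPM + 10) scale. In cardiomyocyte-like nuclei, 18 of them were measured between WT 3 dpa and WT UI, with a median log2 difference of -0.29, and 0 passed 2-fold, where 1.83% of all genes were higher and 0.454% lower. Between mutant 3 dpa and mutant UI the median of 17 was 0.25, and 1, the myosin light chain kinase gene *mylk3*, was at least 2-fold higher, as were 2.35% of all genes. Between the uninjured libraries of the mutant and WT the median of 17 was -0.75, and 5 were at least 2-fold lower: *mylk3*, the titin gene *ttn.1*, *obscnb*, and the myosin chaperone genes *hsp90aa1.1* and *unc45b*. Of all genes 3.03% were lower by as much. At 3 dpa the median of 17 between mutant and WT was 0.28, and *hsp90aa1.1* and *unc45b* were at least 2-fold lower, as were 4.50% of all genes. In this list *myl7*, *cmlc1*, *mybpc3*, *ttn.1*, *ttn.2* and *obscnb* were also markers that chose the cardiomyocyte-like nuclei. Their levels, and so the medians, are partly set by that choice.

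Within a library, cardiomyocyte-like nuclei with and without *ankrd1a* among their thinned UMIs can be compared over libraries, since each library gives both classes. A nucleus was called *ankrd1a*-positive where at least 1 of its 500 thinned UMIs was from *ankrd1a*. That gave 105 positive and 6231 negative nuclei in mutant UI, 234 and 5024 in WT 3 dpa, and 27 and 6066 in WT UI. Mutant 3 dpa had 3 positive nuclei and was left out. Negative nuclei are not free of *ankrd1a*, since UMIs that thinning left out still count in the sums. Before thinning, 231, 580 and 94 nuclei held an *ankrd1a* UMI in mutant UI, WT 3 dpa and WT UI. Negative nuclei held 23.7, 87.0 and 7.40 CPM of it in these libraries, against 1553, 1900 and 1457 in positive nuclei. UMIs were summed per library and class and fitted with edgeR's quasi-likelihood test over 15846 genes, with the library as a block.

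The ventricular gene *myh7* was higher in *ankrd1a*-positive nuclei. Positive nuclei held 719 CPM (592 to 865) against 118 CPM (111 to 126) in negative nuclei of mutant UI, and 1385 CPM (1306 to 1467) against 385 CPM (374 to 397) in WT 3 dpa. In WT UI the 27 positive nuclei held 211 CPM from 12 UMIs (109 to 368), against 175 CPM (168 to 182) in negative nuclei, and these intervals overlap. The fitted log2 fold change was 1.54 (SE 0.30, adjusted p 7.65e-05 in edgeR's quasi-likelihood test with Benjamini-Hochberg adjustment), and the level was higher in 3 of 3 libraries. Of all genes, 0.940% were called higher and 1.03% lower, and of the 5 members 1 was called higher and 0 lower. With DESeq2 the value was 1.63 with an adjusted p of 0.00229. The call was lost in 4 of 14 alternatives. Without mutant UI the log2 fold change of *myh7* was 0.96 and the adjusted p 0.969, and with the 6% of nuclei of most UMIs removed they were 1.06 and 0.0597. With at least 2 *ankrd1a* UMIs, a rule that leaves out WT UI, they were 2.09 and 0.0805, and without the library as a block 1.69 and 0.654.

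**Figure D3:**
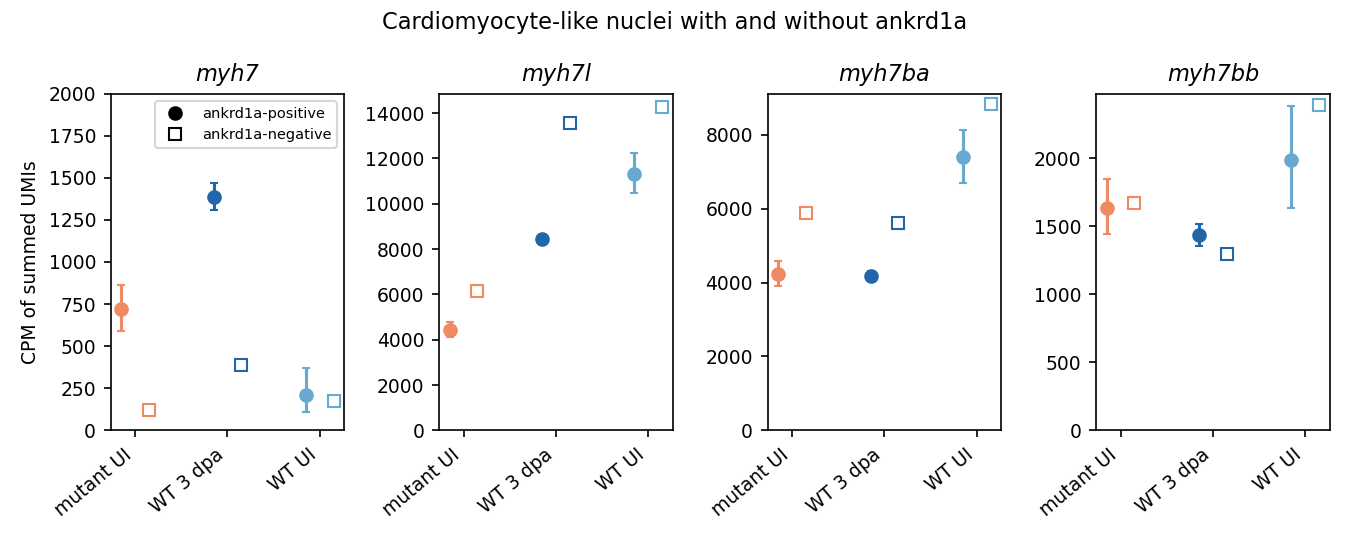
CPM in *ankrd1a*-positive (filled) and *ankrd1a*-negative (open) cardiomyocyte-like nuclei for 4 of the genes, in the 3 libraries with at least 10 positive nuclei; bars are 95% exact Poisson intervals. Positive nuclei lie above negative ones for *myh7* in mutant UI and WT 3 dpa, and below them for *myh7l* and *myh7ba* in all 3 libraries.

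The abundant members did not pass the test. For *myh7l*, positive nuclei held 4429 CPM against 6161 in negative nuclei of mutant UI, 8426 against 13558 in WT 3 dpa and 11324 against 14294 in WT UI. Its log2 fold change was -0.77 (SE 0.26, adjusted p 0.106 in the edgeR fit), with lower levels in 3 of 3 libraries. For *myh7ba*, positive nuclei held 4237 CPM against 5892 in mutant UI, 4184 against 5625 in WT 3 dpa and 7391 against 8824 in WT UI (log2 fold change -0.66, edgeR adjusted p 0.217). The median log2 fold change over all genes was -0.18. Leaving out WT UI gave *myh7l* a value of -0.66 with an adjusted p of 1.57e-05 and *myh7ba* a value of -0.52 with an adjusted p of 0.00194. For *myh7ba* that was the only 1 of 14 alternatives to pass, and *myh7l* passed in 5. The other 4 for *myh7l* were at least 1000 UMIs per nucleus (adjusted p 0.0141), a gate of 20 marker UMIs (0.0376), no filter on low counts (0.0381) and no thinning, where the log2 fold change was -0.44 and the adjusted p 0.0293. For *myh7bb* the fit gave -0.31 (adjusted p 0.756 in edgeR) and levels of 1637 against 1672, 1433 against 1293 and 1984 against 2393 CPM in mutant UI, WT 3 dpa and WT UI. For *myh6* it gave -0.88 (edgeR adjusted p 0.746) from 2, 3 and 0 UMIs in positive nuclei.

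As shares of the family, *myh7* made up 6.52% of the myosin UMIs of *ankrd1a*-positive nuclei against 0.851% of those of negative nuclei in mutant UI. In WT 3 dpa the shares were 8.97% and 1.85%, and in WT UI 1.01% and 0.681%. The share of *myh7l* was 40.1% in positive nuclei against 44.4% in negative nuclei of mutant UI, 54.6% against 65.0% in WT 3 dpa and 54.2% against 55.6% in WT UI.

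Per nucleus, 10.5% of *ankrd1a*-positive nuclei held a *myh7* UMI after thinning in mutant UI, against 4.25% of negative nuclei, and 22.6% against 13.6% did so in WT 3 dpa. In WT UI it was 0 of 27 positive nuclei, whose exact interval reaches 12.8%, against 7.95% of negative nuclei. Nuclei outside the cardiomyocyte-like class held a *myh7* UMI in 2.24% of cases in mutant UI, 7.75% in WT 3 dpa and 2.47% in WT UI after the same thinning. Before thinning, median depths of these other nuclei were 810, 834 and 675 UMIs, against 1201, 1835 and 1986 in cardiomyocyte-like nuclei.

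**Figure D4:**
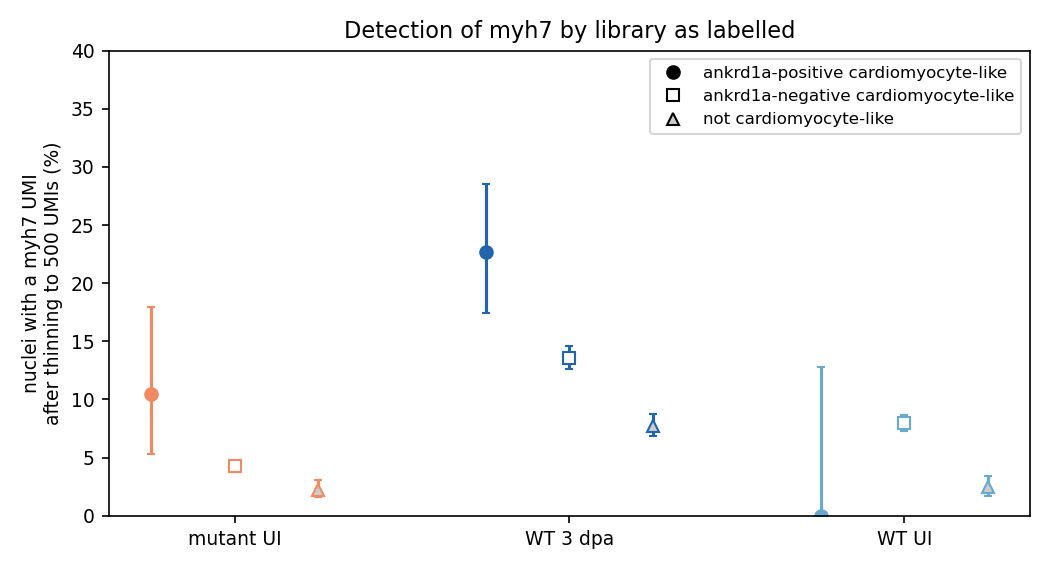
Share of nuclei with a *myh7* UMI (%) after thinning to 500 UMIs, in *ankrd1a*-positive, *ankrd1a*-negative and other nuclei of 3 libraries, with 95% exact Clopper-Pearson intervals. In WT 3 dpa the shares are 22.6%, 13.6% and 7.75%.

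Depth and other cell types were measured beside this split. Median depth was 1197 UMIs in positive and 1202 in negative nuclei of mutant UI, 2683 and 1801 in WT 3 dpa, and 1729 and 1988 in WT UI. Smooth muscle and mural genes bear on the split because *tagln*, *cnn1b* and *rgs5b* were among the genes that rose most. Of the 7 mural markers, 5, 6 and 3 had a UMI in positive nuclei of mutant UI, WT 3 dpa and WT UI. Their summed level was 141 CPM against 125 in negative nuclei of mutant UI, 182 against 161 in WT 3 dpa and 87.8 against 127 in WT UI. The list includes *rgs5b*, which gave 57.8, 70.8 and 52.7 CPM of these sums in positive nuclei and 3.61, 14.2 and 2.93 in negative nuclei. The other mural markers together were lower in positive than in negative nuclei of each library. Of these markers, *ndufa4l2a* was at 0 in positive nuclei of all 3 libraries and *cd248a* in mutant UI and WT UI. Endothelial markers were lower in positive nuclei, at 193, 322 and 369 CPM against 300, 499 and 598 CPM. The part of these cells in the *myh7* result was not tested.

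Of 312 genes called in the *ankrd1a* split, 149 were higher and 163 lower. Those with the largest rises in every library were led by the kinesin gene *kif20ba* (log2 fold change 3.01, edgeR adjusted p 1.61e-10). The mural gene *rgs5b* (2.83), *rtn4rl2a* (2.55), *znf1073* (2.48), the transcription cofactor gene *vgll2b* (2.47), the smooth muscle calponin gene *cnn1b* (2.41), *st8sia5* (2.38), *hspb9* (2.36), the transgelin gene *tagln* (2.33) and the tissue factor gene *f3a* (2.30) followed. Some of these rest on few UMIs in positive nuclei. For *znf1073* there were 2, 4 and 1, and for *hspb9* 1, 7 and 2, in mutant UI, WT 3 dpa and WT UI. In WT UI, positive nuclei held 1 UMI each of *rtn4rl2a* and *f3a*, 2 of *st8sia5*, 3 each of *rgs5b* and *vgll2b* and 4 of *kif20ba*. Among genes that fell, the sodium channel subunit gene *scn3b* had 12.8 CPM in positive nuclei against 155 CPM in negative nuclei of mutant UI, 30.0 against 211 in WT 3 dpa and 52.7 against 229 in WT UI (log2 fold change -2.94). Also called lower were *tacr3a*, *si:dkey-237i9.8*, the pericyte gene *cd248a*, *coro2a* and *asb16*, of which positive nuclei held 0 UMIs in mutant UI and WT UI and 1 to 5 in WT 3 dpa, against 173 to 353 in negative nuclei of WT 3 dpa. Positive nuclei held 0 UMIs of *ccdc85al*, *CABZ01089777.1*, *pax5* and *ablim1a* in all 3 libraries, and no fold is given for any of these genes. Negative nuclei held from 23 (*ablim1a*, mutant UI) to 126 (*CABZ01089777.1*, WT UI) of their UMIs per library. Over all genes, positive nuclei held 155782, 833330 and 56960 UMIs in mutant UI, WT 3 dpa and WT UI, against 8044282, 11650935 and 14319048 in negative nuclei. In the smaller positive classes of mutant UI and WT UI, 0 UMIs can arise by counting for a scarce gene. This is less likely for *coro2a* in WT UI, where negative nuclei held 1398 UMIs (97.6 CPM). In WT 3 dpa, negative nuclei held 9.70 CPM of *ccdc85al*, 7.72 of *CABZ01089777.1*, 9.44 of *pax5* and 8.84 of *ablim1a*. With 833330 UMIs in positive nuclei there, 0 UMIs of these genes are also less likely by counting alone. In mutant UI negative nuclei held 2 UMIs of *coro2a*, 252 of *cd248a* (31.3 CPM) and 232 of *asb16* (28.8 CPM), the last 2 of which are also less likely at 0 by counting. The 0 UMIs in mutant UI and WT UI are not read as loss.

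In each sarcomere or regulator list at most 1 gene was called in this split, beside 0.940% of all genes called higher and 1.03% lower. Among thick filament genes and chaperones 0 of 18 tested passed, with a median log2 fold change of -0.33. Some thick and thin filament genes were also markers that chose the nuclei of both classes. In the thin filament list 1 of 17 rose, the skeletal-type actin gene *acta1a* (1.86, SE 0.29, edgeR adjusted p 1.96e-07), at 154 CPM in positive against 23.9 in negative nuclei of mutant UI, 532 against 202 in WT 3 dpa and 1580 against 281 in WT UI. Of 6 non-muscle and smooth muscle myosin heavy chains 1 rose, *myh9b* (1.07, edgeR adjusted p 0.0107), which encodes a non-muscle myosin II heavy chain. Of 7 atrial and pacemaker genes 1 fell, the pacemaker channel gene *hcn4* (-1.49, edgeR adjusted p 0.00102). Of 23 regulators 1 fell, *tbx5a* (-1.08, edgeR adjusted p 0.0214), a T-box factor of heart development, and of 3 ventricular genes 0 passed. The 10 other striated-muscle myosin heavy chains, such as *smyhc1* and *myhz2*, were all left out by the filter on low counts.

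The split was also made the other way, by a *myh7* UMI among the 500 thinned UMIs, in all 4 libraries. There were 135 *myh7*-positive and 7521 negative nuclei in mutant 3 dpa, 276 and 6060 in mutant UI, 736 and 4522 in WT 3 dpa, and 482 and 5611 in WT UI. Negative nuclei still held 22.2, 60.4, 191 and 120 CPM of *myh7* in these libraries, from UMIs that thinning left out. Positive nuclei held 981, 1552, 2114 and 755 CPM. This second split rests partly on the same nuclei as the first split and is no independent support for it. In positive nuclei median depths were 1078, 1120.5, 1444.5 and 2090 UMIs in mutant 3 dpa, mutant UI, WT 3 dpa and WT UI. Negative nuclei had medians of 1072, 1205, 1897 and 1980 UMIs. In *myh7*-positive nuclei *ankrd1a* stood at 11.5 CPM from 2 UMIs against 0.431 in negative nuclei of mutant 3 dpa, 211 against 45.1 in mutant UI, 395 against 179 in WT 3 dpa and 9.54 against 13.5 in WT UI. WT UI ran the other way from the rest. The log2 fold change was 1.18 (SE 0.16, edgeR adjusted p 3.44e-10) over 16927 genes, of which 0.402% were called higher and 0.620% lower. With the 6% of nuclei of most UMIs removed it was 0.65 with an adjusted p of 0.106, without the block the adjusted p was 0.9999, and DESeq2 gave 1.60 with no adjusted p.

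Of the 4 other myosins, 0 passed the test between *myh7*-positive and *myh7*-negative nuclei. For *myh7l*, positive nuclei held 12135 CPM against 11154 in mutant 3 dpa, 5846 against 6142 in mutant UI, 12297 against 13360 in WT 3 dpa and 14811 against 14232 in WT UI. Its log2 fold change was -0.17 (SE 0.11, edgeR adjusted p 0.747). For *myh7ba* the value was -0.29 (edgeR adjusted p 0.271), and it was -0.36 with an adjusted p of 0.0362 without WT UI and -0.38 with an adjusted p of 0.0340 without the filter on low counts, the 2 of 12 alternatives in which it passed. For *myh7bb* it was -0.11 and for *myh6* -0.67, with edgeR adjusted p of 0.885 and 0.719, the value for *myh6* from 1, 7, 7 and 0 UMIs in positive nuclei of mutant 3 dpa, mutant UI, WT 3 dpa and WT UI. Nuclei with a *myh7l* UMI held a *myh7* UMI in 1.76%, 4.18%, 14.0% and 7.95% of cases in mutant 3 dpa, mutant UI, WT 3 dpa and WT UI, against 2.13%, 5.59%, 14.7% and 4.88% of the few nuclei without one.

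In this second split 68 genes were called higher and 105 lower. Those with the largest rises in every library were *sytl1* (1.36), *tagln* (1.31), the replication helicase gene *mcm4* (1.103), *CABZ01092781.1* (1.07), ENSDARG00000078741 (1.05), the cell adhesion gene *bcam* (0.98), *flrt2* (0.96), *cttnbp2nlb* (0.95), *gpr158b* (0.93) and *syt9a* (0.92). Transgelin gene *tagln* was thus in the top 10 of both splits. In mutant 3 dpa, positive nuclei held only 1 UMI each of *sytl1*, *tagln* and *mcm4*, and 2 each of *CABZ01092781.1* and *syt9a*. For *bcam*, positive nuclei held 623 CPM against 115 in mutant 3 dpa, 606 against 236 in mutant UI, 325 against 188 in WT 3 dpa and 106 against 92.2 in WT UI. The genes that fell by most were *pfkfb2a* (-1.03), ENSDARG00000071233 (-0.92), *dnajb6a* (-0.82), *si:ch211-270g19.5* (-0.81), *sardh* (-0.71), *scml4* (-0.69), *fgf17* (-0.66), the growth hormone receptor gene *ghra* (-0.65) and *rps6ka5* (-0.64), besides *wu:fc38h03*, for which positive nuclei of all 4 libraries held 0 UMIs. The larger negative class held only 11, 8, 26 and 41 UMIs of *wu:fc38h03* in mutant 3 dpa, mutant UI, WT 3 dpa and WT UI. Of *pfkfb2a* and *dnajb6a*, positive nuclei held 0 UMIs each in mutant 3 dpa and 2 each in mutant UI. ENSDARG00000071233 stood at 34.6 CPM in positive against 35.7 in negative nuclei of mutant 3 dpa. From the lists, the tropomyosin gene *tpm2* (0.62, edgeR adjusted p 0.0237) and the non-muscle myosin gene *myh10* (0.44, edgeR adjusted p 0.0327) rose, each in 3 of 4 libraries, and *hcn4* fell (-0.50, edgeR adjusted p 0.0103) in 4 of 4. Among thick filament genes 0 of 18 passed. Endothelial markers stood at 364, 290, 536 and 659 CPM in positive against 405, 299, 479 and 591 in negative nuclei, libraries in the same order. Fibroblast or epicardial markers stood at 98.1, 703, 781 and 198 against 136, 665, 675 and 171. Mural markers stood at 86.6, 140, 183 and 127 against 89.5, 125, 160 and 127. The part of depth and of other cells in the calls was not tested.

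An atrial class of nuclei could not be assembled. Of cardiomyocyte-like nuclei with at least 3 UMIs of *myh6*, *myh7* and *myh7l* together, *myh6* made up 80% or more in 7 nuclei of mutant UI and in 0 nuclei of the other 3 libraries. Those 7 nuclei held 33 *myh6* UMIs, 0 of *myh7*, 3 of *myh7l*, 41 of *myh7ba* and 11 of *myh7bb*. Since *myh6*, *myh7* and *myh7l* chose them, only the myh7b pair among the members is free of the choice: *myh7ba* stood at 3965 CPM (2845 to 5379) in the 7 nuclei against 5860 in all cardiomyocyte-like nuclei of that library, and *myh7bb* at 1064 CPM (531 to 1903) against 1671. The atrial transcription factor gene *nr2f1a* had 3 UMIs in them, which is 290 CPM (59.8 to 848), against 4.88 CPM in all cardiomyocyte-like nuclei. From the atrial list *smtnl1* had 2 UMIs, at 193 CPM (23.4 to 699) against 21.7. The ventricular gene *irx1a* had 1 UMI, at 96.7 CPM (2.45 to 539) against 71.8. The ventricular genes *hey2* and *irx4a* had 0 UMIs, with intervals that reach 357 CPM, against 24.0 and 0.610 CPM in all cardiomyocyte-like nuclei. With 10341 UMIs in the 7 nuclei, 0 UMIs would be likely at those levels too, so they do not tell the classes apart. Other genes of the atrial list, such as *hcn4* and *nr2f2*, were not measured in these 7 nuclei. No test was made on a single library.

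Most cardiomyocyte-like nuclei held more than 1 of the 5 genes. After thinning, 2 members were found in 54.5% of nuclei in mutant 3 dpa, 45.5% in mutant UI, 47.3% in WT 3 dpa and 33.4% in WT UI, and 3 members in 37.5%, 39.5%, 30.9% and 57.8%. Nuclei with a *myh7l* UMI held a *myh7ba* UMI in 89.5%, 88.9%, 76.6% and 94.8% of cases in those libraries, against 75.5%, 81.9%, 50.8% and 64.6% of nuclei without. Nuclei with a *myh7ba* UMI held a *myh7bb* UMI in 42.0%, 49.1%, 37.6% and 63.1% of cases, against 36.5%, 42.6%, 18.7% and 33.9% without. In all 4 libraries, nuclei with the one member thus held the other more often than nuclei without it, in sparse counts that share library and depth. Nuclei outside the cardiomyocyte-like class held a *myh7l* UMI after thinning in 87.2%, 56.3%, 73.4% and 79.6% of cases in the same order. They held a *myh7ba* UMI in 53.1%, 45.5%, 25.2% and 39.0%, so detection of 2 members is not read as expression of both.

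For each member, the genes of most similar pattern were those whose level differed most, in the library where it differed least, between cardiomyocyte-like nuclei with and without a UMI of the member (9450 genes, 4 libraries). For *myh7* they were *mybpc1* (lowest log2 difference 0.52), ENSDARG00000036863 (0.49), *sulf2a* (0.45), *emilin1b* (0.45) and *ccn2a* (0.44). For *myh7l* they were *asb2a.1* (0.91), *si:ch211-242b18.1* (0.78), *mylk4b* (0.69), *nhsl1a* (0.68) and *gpib* (0.65). For *myh7ba* they were *nlgn1* (0.47), *zmym4* (0.42), *atp1a3b* (0.42), *si:ch211-26b3.4* (0.40) and *LO017951.1* (0.40), and for *myh7bb* *magixb* (0.17), *gtf2ird1* (0.16), *chchd3b* (0.15), *mhc1zca* (0.15) and *CABZ01086041.1* (0.14). For *myh6*, with a UMI in 3 to 64 nuclei per library, the list of *sema3fb*, *cox7b*, *stim2b*, *selenot1a* and *grip1* rests on too few nuclei to be read. The *myh7l* list is limited on the other side. Nuclei without a *myh7l* UMI numbered only 94 in mutant 3 dpa, 805 in mutant UI, 177 in WT 3 dpa and 82 in WT UI.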

How the data were processed

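The authors deposited UMI counts, not normalized, for each gene and barcode; Cell Ranger 7.0.0 made them, per the file headers, and the submitters' processing notes also name GRCz11, R 4.2.0 and Seurat 4.3.0. Which annotation and cell calling were used, and whether introns were counted, was not given in the sources used here. Nuclei were isolated with a Chromium kit and sequenced as 3 prime v3.1 libraries, per the labels' protocols. Nuclei were filtered as stated, and CPM was taken over symbols shared by all libraries, which held 90.8%, 90.3%, 100.0% and 99.9% of UMIs in mutant 3 dpa, mutant UI, WT 3 dpa and WT UI. Each nucleus was thinned to 500 UMIs. Cardiomyocyte-like nuclei had at least 10 of these from cardiomyocyte markers and fewer than 3 from each of 8 other marker lists; nuclei meeting more than 1 list were left out and no doublet caller was run. Nuclei under 500 UMIs on shared genes (893, 946, 1 and 2 in that order) were in neither class. Ratios between libraries are of CPM, log2 differences are of CPM + 10, and genes needed 50 UMIs over both libraries.

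Sums per library and class were fitted with edgeR 4.0.16 (R 4.3.3; TMM, filterByExpr, Benjamini-Hochberg threshold 0.05), with the library as a block because both classes come from 1 library. The SE given with edgeR values was worked back, as the absolute log2 fold change over the square root of the test's F statistic. DESeq2 1.42.0 was an alternative. Libraries needed 10 nuclei in each class. On simulated counts for the *ankrd1a* split, 86% of 4-fold and 15% of 2-fold changes were recovered (16014 genes), and for the *myh7* split 100% and 75% (16978 genes). The simulation used a single fixed spread for all genes and changed only genes with many UMIs. Recovery of scarce genes, or at the spread of the data, was not measured. The planned fit of *myh6*-dominant nuclei could not be made, and the *myh7* split was added after seeing the data. Besides the 5 members, the text names the 10 genes of largest change per direction called with the same sign in every library, up to 4 called genes per list, and 5 genes of most similar pattern per member. The members, gene lists and rules were chosen with earlier results of these data known. Intervals cover counting error only. P-values measure how the difference between positive and negative nuclei varies over libraries, which differ in genotype and injury label. Each library may pool several fish.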

Additional observations from a re-analysis of the deposited data

Results flagged for a closer look

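In 5 measures the 3 dpa library stood above the UI library in one genotype and below it in the other, over all kept nuclei and on the log2(CPM + 10) scale, and with 1 library per group the difference was not tested. The value for *myh7* was -1.35 in the mutant and 1.18 in WT. For *myh6* it was -1.32 in the mutant and 0.49 in WT. For *myh7l* it was 1.04 in the mutant and -0.33 in WT, for *myh7ba* 0.17 in the mutant and -0.96 in WT, and for the family 0.59 in the mutant and -0.56 in WT. In cardiomyocyte-like nuclei alone the mutant value of *myh7ba* was -0.024, so its directions were not opposite there, while those of the other 4 measures were. Beside these values, *ankrd1a* differed by -2.41 in the mutant and 2.89 in WT, and *cited4a* by 3.16 in the mutant and -1.36 in WT. The part of the labels in the result was not tested.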

How the results depend on the processing

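No paired analysis was possible for differences between libraries because each group came as 1 matrix, with no map from its barcodes to the 4 labelled samples.
The family log2 ratio between mutant and WT at 3 dpa, 0.13, became -0.014 with CPM over each own gene table and -0.17 in cardiomyocyte-like nuclei, and was 0.65 with TMM, 0.067 with at least 1000 UMIs, 0.16 with at most 10% mitochondrial UMIs and 0.16 with the 6% of nuclei of most UMIs removed. For mutant over WT at UI it was -1.18, -0.89, -1.36, -0.95, -1.14 and -1.09 in the same order, and -1.36 with all barcodes. For mutant 3 dpa over UI it was 0.61, 0.40, 0.98, 0.50, 0.70 and 0.64 in that order, and 0.88 with all barcodes. For WT 3 dpa over UI it was -0.32 in cardiomyocyte-like nuclei, -1.02 with TMM, -0.51 with at least 1000 UMIs, -0.60 with at most 10% mitochondrial UMIs, -0.61 with the deepest 6% removed and -0.62 with all barcodes. TMM factors were 0.844, 1.11, 1.21 and 0.880 in mutant 3 dpa, mutant UI, WT 3 dpa and WT UI.
The *myh6* share differed between mutant and WT at UI by 0.192 points, and by 0.148 in cardiomyocyte-like nuclei, 0.128 with at least 1000 UMIs, 0.222 with at most 10% mitochondrial UMIs, 0.229 with the deepest 6% removed and 0.298 with all barcodes. Between mutant 3 dpa and UI it differed by -0.180, and by -0.140, -0.118, -0.216 and -0.286 with cardiomyocyte-like nuclei, 1000 UMIs, the deepest 6% removed and all barcodes. Between WT 3 dpa and UI it was 0.0330, and 0.0224 in cardiomyocyte-like nuclei.
Member ratios changed sign as follows: between mutant 3 dpa and UI, *myh7ba* to -0.024 in cardiomyocyte-like nuclei and *myh7bb* to 0.032 with all barcodes and 0.14 with TMM; between mutant and WT at 3 dpa, *myh7bb* to -0.080 in cardiomyocyte-like nuclei and *myh7l* to -0.026 with at least 1000 UMIs, -0.24 in cardiomyocyte-like nuclei and -0.11 over each own gene table. The ratios of *myh6* and *myh7* kept their sign in all 32 alternatives each. The causes were not tested.
The 312 genes called in the *ankrd1a* split became 54 with 2 or more *ankrd1a* UMIs, which drops WT UI, 146 with the deepest 6% removed and 730 without thinning. They ranged from 18 (without mutant UI) to 880 (without WT UI) when 1 library was left out. The log2 fold change of *myh7* stayed between 0.96 and 2.11 over 14 alternatives, and its call was lost in 4: without mutant UI, with the deepest 6% removed, with 2 or more UMIs (adjusted p 0.0805) and without the block (adjusted p 0.654). Without the replicate block 0 genes were called in edgeR in either split (860 and 112 at an unadjusted p under 0.05), and with it DESeq2 called 210 and 50.
The 173 genes called in the *myh7* split became 63 with the deepest 6% removed, 50 with DESeq2, 101 with a gate of 5 marker UMIs and 288 without the filter on low counts. They ranged from 42 (without WT 3 dpa) to 251 (without WT UI) when 1 library was left out. The *ankrd1a* value there stayed between 0.65 and 1.60 over 12 alternatives.
The planned *myh6*-dominant fit and its alternatives were not run, since no library had 10 such nuclei. Depth limits *myh6*, whose level rests on 26 to 176 UMIs per library.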
